A study of Homo sapiens with 12 samples.

Results

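Cal27 cells that had been conditioned on a stiff gel were compared with Cal27 cells that had been conditioned with lysophosphatidic acid (LPA), after both had been moved to a soft gel. Cal27 is an established line from a squamous carcinoma of the tongue, and the labels give its genotype as WT and its cell type as epithelial. The stiff-to-soft cells grew for 5 days on polyacrylamide gels of 20 kPa and then for 1 day on gels of 0.48 kPa. The LPA-to-soft cells grew for 5 days on gels of 0.48 kPa with LPA and then for 1 day on gels of the same softness. All gels were coated with collagen, and all cells were kept in high glucose medium with serum. The comparison took 6 of the 12 libraries of the series, 3 in each group, paired by the replicate number in the labels. It covered every gene that passed a filter on low counts, which was 15437 of 25382 gene symbols. The tested set was therefore not picked by how genes differed between the conditions. The genes named below and the gene lists, however, were chosen with results of these data known. The 6 libraries of the other conditions entered the same fit, where they helped to estimate the spread and the replicate terms, and their values are given beside the comparison. The soft-to-soft cells stayed on gels of 0.48 kPa throughout without LPA. The LPA-to-FAKi cells were conditioned like the LPA-to-soft cells and then replated with FAKi, which blocks focal adhesion kinase (FAK). The series design places stiff-to-soft and LPA-to-soft in the same class, as cells that had learned, so this comparison asks where these conditions differ. Nothing in the labels ties replicates to separate cultures. The p-values then reflect only the spread among these samples, and that spread may be technical.

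LPA is a lipid of serum that binds a family of G protein-coupled receptors on the cell surface. These receptors switch on the small GTPase RhoA, which drives myosin contraction, and they also feed the ERK pathway, whose fast response is a burst of immediate early genes. A stiff gel reaches the same contractile machinery from outside, because integrins that pull against a resisting matrix build focal adhesions in which FAK is active. YAP and TAZ, and the serum response factor SRF with its actin-sensing partner MRTF, are transcriptional regulators that respond to this tension. In stratified squamous epithelium, basal cells attached to matrix express TP63 and the keratins KRT5, KRT14 and KRT15, and cells that leave the matrix switch to cornification genes.

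The 6 libraries held between 101153180 and 121070917 counts each. Of their low counts (1 to 19), 96.8% to 97.8% were even numbers, and what this means for the totals was not tested. All 10 epithelial and squamous markers averaged at least 1 CPM (counts scaled to library size) in each of the 4 conditions, and their summed level ran from 8004 to 12211 CPM over the 6 libraries. Fibroblast markers summed to between 14.9 and 33.5 CPM, leukocyte markers to between 14.0 and 21.4 CPM, and endothelial markers to between 13.5 and 39.1 CPM. CD3E and MS4A1 of the leukocyte list and KDR, TIE1, CLDN5 and EMCN of the endothelial list were at 0 in all 6 libraries. Of the 10 endothelial markers, CDH5 alone reached 36.3 CPM, in stiff-to-soft replicate 2, and the part of these low levels in any result was not tested. In bulk RNA, fewer cells of a type and less RNA per cell cannot be told apart. Replicate number accounted for 64.2% and condition for 13.5% of the sums of squares over genes in these 6 libraries.

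A single gene differed between the conditions at an adjusted p under 0.05. THBD encodes thrombomodulin, a surface receptor that binds thrombin and turns it towards activating protein C. THBD stood at 79.2, 64.1 and 54.2 CPM in stiff-to-soft replicates 1, 2 and 3 and at 111, 92.5 and 69.7 CPM in the LPA-to-soft replicates. It was lower after stiff conditioning in each of the 3 pairs, while the groups overlapped in level because replicate 1 was high and replicate 3 low in both. THBD fell by 0.46 on the log2 scale (SE 0.054, 95% interval -0.58 to -0.34, n = 3 per condition, edgeR adjusted p = 0.0496). This is 0.00648% of the genes tested, and 0 genes were higher in stiff-to-soft at this threshold. DESeq2 called 71 of the 15437 genes in the same libraries, 35 higher and 36 lower, and limma voom called 1 gene, THBD. The 71 of 15437 are the baseline for the list members that DESeq2 called.

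The THBD call was close to the threshold and did not survive several changes to the fit. Without the replicate block THBD stood at -0.47 (adjusted p = 0.999969), and with only the 6 compared libraries in the fit it stood at -0.46 (adjusted p = 0.119). Leaving out any 1 of the 6 libraries, or any replicate number in every condition, ended the call in 9 of 9 cases, with adjusted p between 0.116 and 0.833. In the same cases the difference itself stayed between -0.50 and -0.42.

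THBD was also measured in the other conditions. In soft-to-soft libraries THBD stood at 109.8, 92.1 and 73.2 CPM, and in LPA-to-FAKi libraries at 136, 109 and 91.2 CPM. Within each replicate number the LPA-to-soft level lay within 4 CPM of the soft-to-soft level, and the stiff-to-soft level was the lowest of the 4 conditions. Against soft-to-soft, THBD fell by 0.48 in stiff-to-soft (edgeR adjusted p = 0.0054) and stood at -0.02 in LPA-to-soft (adjusted p = 0.957), in comparisons that share the soft-to-soft libraries. At the adjusted threshold 0.583% of genes were called between stiff-to-soft and soft-to-soft, and 0% between LPA-to-soft and soft-to-soft. Low counts in soft-to-soft replicates 1 and 2 were even numbers in 42.9% and 42.2% of cases, against 96.8% to 97.8% in the other 10 libraries. With the counts of the 10 even libraries halved, 100 genes were called in stiff-to-soft against that group (45 higher, 55 lower) and 0 in LPA-to-soft, and THBD stood at -0.48 (adjusted p = 0.00498). With replicates 1 and 2 left out, a single soft-to-soft library remained and was assumed to vary like the other groups. In that fit 0 genes were called in either comparison and THBD stood at -0.48 (adjusted p = 0.266), and the loss of calls cannot be told apart from the loss of libraries.

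Apart from THBD, the data bound the differences more than they resolve them. An unadjusted p under 0.05 was reached by 1454 of 15437 genes (9.42%), of which 714 (4.63%) were higher and 740 (4.79%) lower in stiff-to-soft. Fold changes lay above 0 for 50.2% of genes and below 0 for 49.8%. The median size of the log2 fold change was 0.11, and the median standard error was also 0.11. The 95% interval lay within 1 log2 unit of 0 for 12322 genes (79.8%) and within 0.5 log2 units for 9723 genes (63.0%). An estimated change of 1 log2 unit or more was seen for 561 genes, whose median level was 0.113 CPM against 19.1 CPM for all genes tested, and 151 of them had an unadjusted p under 0.05. After THBD, the smallest adjusted p was 0.213.

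**Figure D1:**
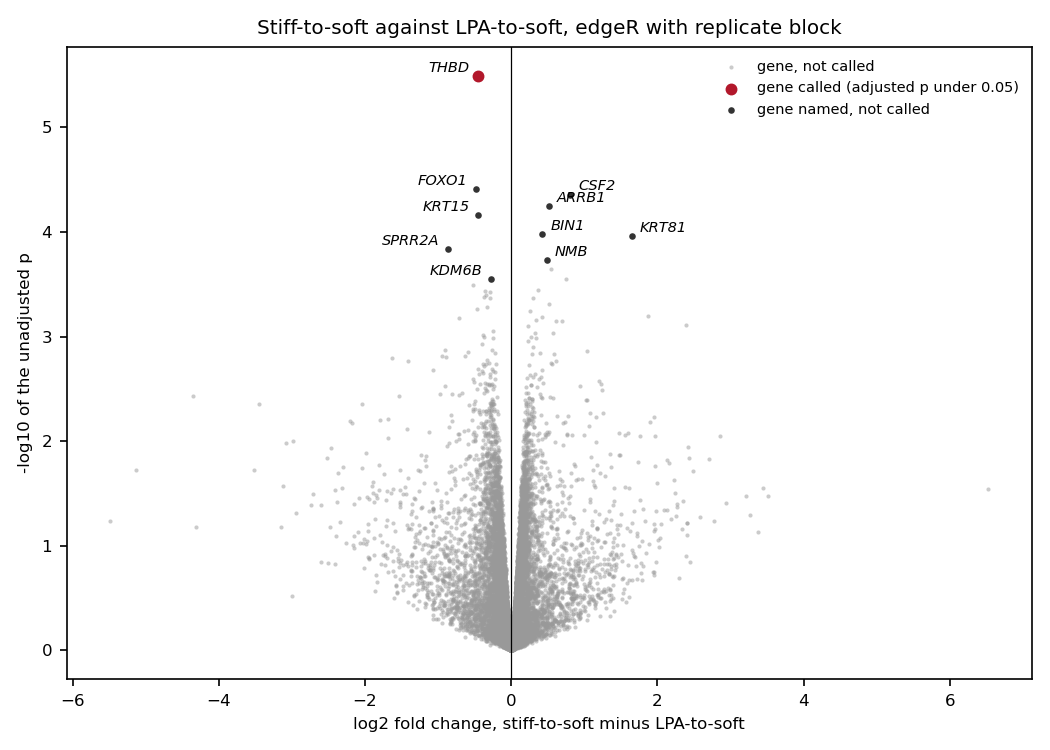
Log2 fold change (stiff-to-soft minus LPA-to-soft, x axis) against -log10 of the unadjusted edgeR p (y axis) for the 15437 genes tested. THBD, in red, is the gene called, and the 9 other genes named are those with the smallest p in each direction.

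The genes next to THBD in the ranking are given as values, since none of them passed the edgeR threshold, although DESeq2 called all 9 that follow, with adjusted p from 7.64e-06 for CSF2 to 0.00848 for KDM6B. Those lower in stiff-to-soft were FOXO1, KRT15, SPRR2A and KDM6B. FOXO1, a transcription factor that AKT keeps out of the nucleus, stood at 27.8, 18.3 and 23.4 CPM in the stiff-to-soft libraries and at 39.1, 27.2 and 30.4 CPM in the LPA-to-soft libraries. The difference was -0.48 (SE 0.073, edgeR adjusted p = 0.213), negative in 3 of 3 pairs although the groups overlapped. The same sign in all 3 pairs was found for 16.8% of all genes in this direction and 18.1% in the other. Choice by p from a fit with replicate terms favours such genes, so for those named here pair signs are no separate evidence. In soft-to-soft libraries FOXO1 stood at 34.8, 23.3 and 29.4 CPM, and so lay between the 2 compared conditions in each replicate number.

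KRT15, a keratin of basal cells, stood at 554, 193 and 186 CPM in stiff-to-soft and at 724, 239.7 and 292 CPM in LPA-to-soft. Replicate 1 was far above the other replicates in both conditions, and each pair was lower on the stiff side. The KRT15 difference was -0.45 (SE 0.073, edgeR adjusted p = 0.213), beside 827, 318 and 346 CPM in soft-to-soft. SPRR2A, a small proline-rich protein of the cornified envelope, stood at 45.4, 15.4 and 14.0 CPM in stiff-to-soft and at 77.5, 30.6 and 25.3 CPM in LPA-to-soft (difference -0.87, SE 0.15, adjusted p = 0.28). SPRR2A has near-identical neighbours, so the assignment of its reads is uncertain. KDM6B, a demethylase of lysine 27 on histone H3, showed a difference of -0.27 (SE 0.053, adjusted p = 0.333), with pair values from -0.32 to -0.25.

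The genes with the smallest p among those higher in stiff-to-soft were CSF2, ARRB1, BIN1, KRT81 and NMB. CSF2 encodes the cytokine GM-CSF and stood at 26.2, 68.3 and 30.3 CPM in stiff-to-soft against 17.6, 36.0 and 16.4 CPM in LPA-to-soft. Replicate 2 was high in both conditions, so the groups overlapped, while each pair was higher on the stiff side. The CSF2 difference was 0.80 (SE 0.12, 95% interval 0.53 to 1.07, edgeR adjusted p = 0.213). Soft-to-soft libraries held 11.5, 23.5 and 12.8 CPM of CSF2, below LPA-to-soft in every replicate number. Against soft-to-soft, CSF2 stood at 1.32 in stiff-to-soft (adjusted p = 0.00384) and at 0.52 in LPA-to-soft (adjusted p = 0.375), with the soft-to-soft libraries shared. With the even libraries halved these values were 1.33 (adjusted p = 0.00391) and 0.53 (adjusted p = 0.353). Against the single soft-to-soft library left without replicates 1 and 2 they were 1.10 and 0.31, with adjusted p = 0.206 and 1.

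ARRB1 encodes beta-arrestin 1, which uncouples activated G protein-coupled receptors from their G proteins. It stood at 28.3, 44.7 and 49.2 CPM in stiff-to-soft and at 19.4, 31.6 and 34.8 CPM in LPA-to-soft. All 3 pairs were alike, with differences from 0.50 to 0.55, and the fit gave 0.52 (SE 0.082, edgeR adjusted p = 0.213). BIN1, a protein that bends membranes, stood at 33.7, 70.4 and 58.1 CPM in stiff-to-soft against 24.2, 53.1 and 44.5 CPM in LPA-to-soft (difference 0.42, adjusted p = 0.242). NMB, the peptide neuromedin B, gave 0.48 (SE 0.088, adjusted p = 0.319).

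KRT81, a hair keratin, had the largest of these differences and the lowest levels. It stood at 2.31, 18.5 and 7.98 CPM in stiff-to-soft and at 0.909, 4.36 and 3.14 CPM in LPA-to-soft. The difference was 1.65 (SE 0.28, edgeR adjusted p = 0.242), higher in 3 of 3 pairs with overlapping groups. KRT81 has near-identical relatives among the hair keratins, so its counts are uncertain.

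**Figure D2:**
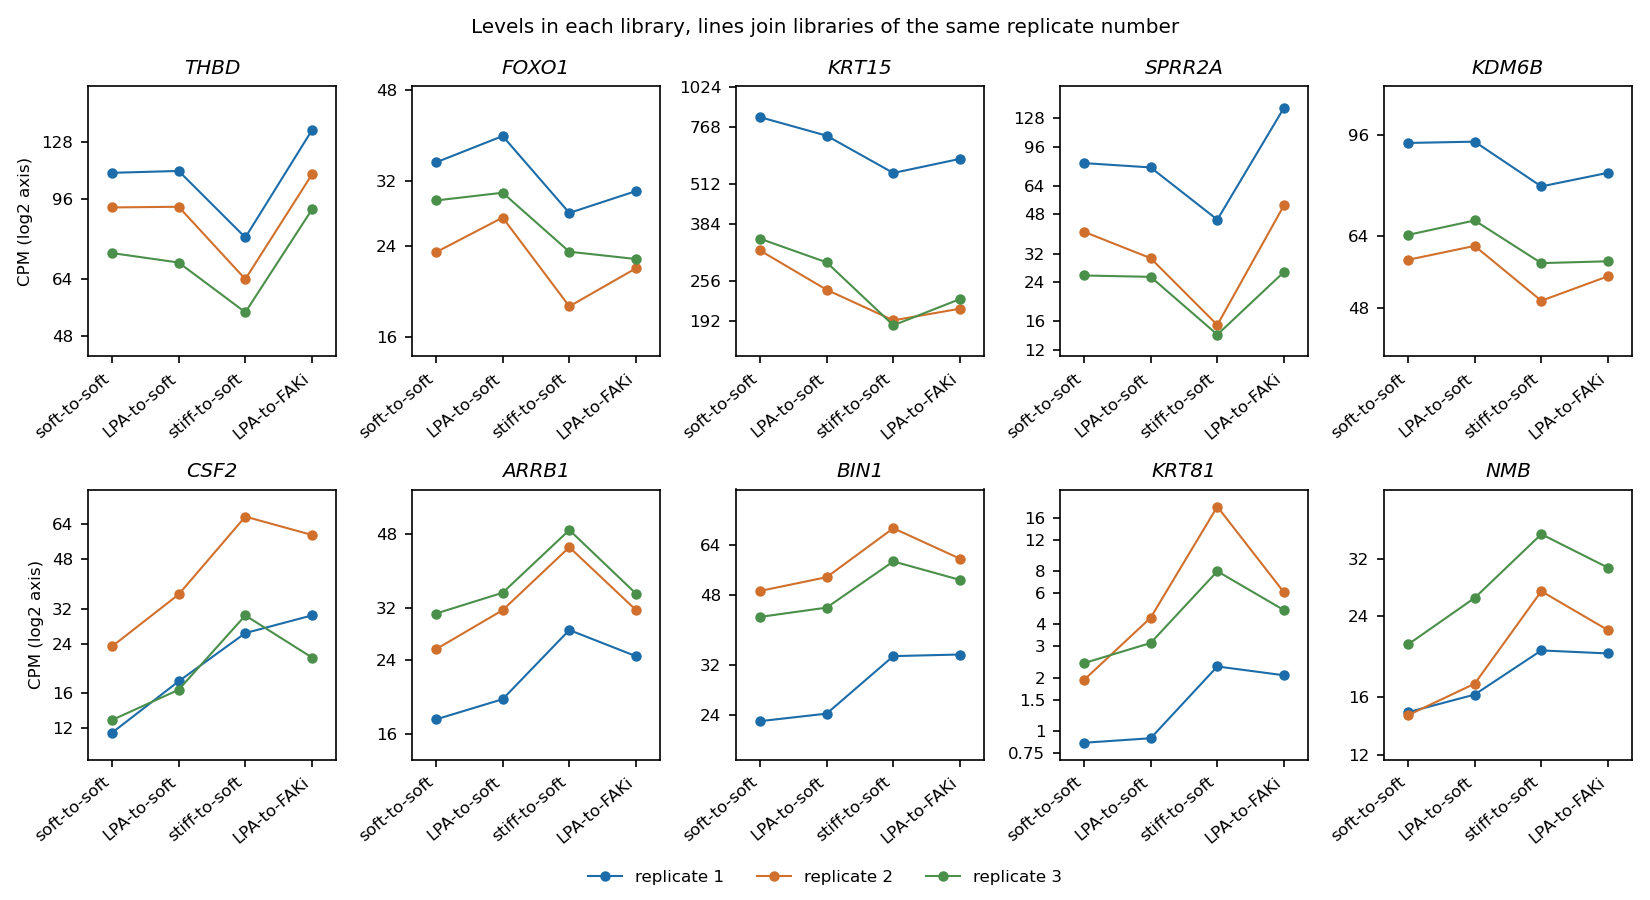
CPM on a log2 axis in each of the 12 libraries for the 5 genes of smallest p that were lower in stiff-to-soft (top row) and the 5 that were higher (bottom row). Each line joins the 4 conditions of 1 replicate number. In each panel every line moves the same way from LPA-to-soft to stiff-to-soft, as for 35% of all genes. The genes were picked by p from a fit with replicate terms, so this is no separate evidence.

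The receptors and enzymes through which cells sense and clear LPA showed no called member. Of the 17 genes in a list of LPA receptors and turnover, 15 passed the filter, with 7 above 0 and 8 below 0 and a median of -0.03, beside 0.00 over all genes tested. Of these, 1 gene had an unadjusted p under 0.05, beside 9.42% of all genes. It was PPAP2C, which dephosphorylates LPA, with a difference of 0.15 (edgeR adjusted p = 0.525). DESeq2 called 0 of the 15 genes. LPAR1 stood at 10.7, 18.3 and 26.0 CPM in stiff-to-soft and at 18.0, 17.7 and 27.2 CPM in LPA-to-soft. Only replicate 1 was apart, and the difference was -0.26 (95% interval -0.55 to 0.04, adjusted p = 0.562). LPAR2 stood at 0.19 (-0.01 to 0.38) and LPAR3 at -0.22 (-0.56 to 0.13). The less certain values were those of LPAR5, at -0.13 (-0.64 to 0.39), and of LPAR6, at -0.14 (-0.84 to 0.56). LPAR4 had 4, 0 and 4 counts in stiff-to-soft and 0, 0 and 2 counts in LPA-to-soft, and was not tested.

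RHOA and the myosin genes MYH9 and MYL9 did not pass the test. RHOA stood at 399.8, 488 and 478 CPM in stiff-to-soft and at 391, 469 and 479.9 CPM in LPA-to-soft. The RHOA difference was 0.03, with a 95% interval from -0.09 to 0.14 (edgeR adjusted p = 0.881). MYH9, the heavy chain of non-muscle myosin IIA, stood at -0.07 (-0.26 to 0.12). MYL9, a regulatory light chain, stood at -0.14 (-0.63 to 0.36).

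Other contractility genes stood lower in stiff-to-soft without passing the test. MYLK, the kinase that phosphorylates myosin light chains, stood at 13.0, 20.0 and 25.2 CPM in stiff-to-soft and at 18.8, 33.5 and 34.5 CPM in LPA-to-soft. Each pair was lower on the stiff side, with a difference of -0.57 (SE 0.16, edgeR adjusted p = 0.452). MYH14, another non-muscle myosin heavy chain, stood at -0.38 (adjusted p = 0.452), and ARHGEF12, an exchange factor that links G proteins to RhoA, at -0.33 (adjusted p = 0.452). In soft-to-soft libraries ARHGEF12 stood at 39.4, 38.4 and 31.8 CPM, close to the 41.1, 32.8 and 33.3 CPM of stiff-to-soft, and LPA-to-soft held 46.4, 47.1 and 40.6 CPM.

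Focal adhesion genes went both ways, with member values from -0.55 to 0.37. All 44 listed genes passed the filter, with 24 above 0, 20 below 0, a median of 0.01 and none at an unadjusted p under 0.05 in either direction. DESeq2 also called 0 of them. PTK2, which encodes FAK, stood at 50.4, 52.5 and 55.5 CPM in stiff-to-soft and at 49.2, 51.4 and 53.7 CPM in LPA-to-soft. The PTK2 difference was 0.04, with a 95% interval from -0.09 to 0.17 (edgeR adjusted p = 0.856). The smallest p of the list belonged to LPP, an adhesion protein with LIM domains, at -0.21 (-0.42 to 0.00).

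Targets of YAP and TAZ and of SRF gave no common direction. The YAP/TAZ list had 10 members above 0 and 15 below 0 of 25 tested, with a median of -0.03. CYR61 stood at 234, 313 and 569 CPM in stiff-to-soft and at 325, 281 and 521 CPM in LPA-to-soft, lower in pair 1 and higher in pairs 2 and 3, and its difference was -0.07 (95% interval -0.32 to 0.19). CTGF stood at -0.41 (-0.85 to 0.04), with pair values of -1.12, -0.07 and 0.07. ANKRD1 stood at 0.47 (-0.37 to 1.30). Those 3 genes are commonly used readouts of YAP activity. TGFB2, a growth factor on the same list, stood at 0.47 and PTPN14, a phosphatase that restrains YAP, at -0.25, both with edgeR adjusted p above 0.45. The SRF/MRTF list had 8 members above 0 and 13 below 0 of 21, with a median of -0.04, and tropomyosin TPM1 stood at 0.44 (adjusted p = 0.514).

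Matrix genes leaned to the stiff side in pairs 2 and 3 only. Of 37 tested, 23 were above 0 and 14 below 0, with a median of 0.02, and the medians of pairs 1, 2 and 3 were -0.16, 0.21 and 0.20. FN1, fibronectin, stood at 90.4, 173 and 248 CPM in stiff-to-soft and at 85.2, 133 and 187 CPM in LPA-to-soft. The groups overlapped, and FN1 stood at 0.29 (SE 0.10, 95% interval 0.06 to 0.51, edgeR adjusted p = 0.497). Soft-to-soft libraries held 50.6, 75.8 and 124 CPM of FN1, below both conditioned groups in each replicate number. SPARC, a secreted protein that binds collagen, stood at 0.48 (adjusted p = 0.452), with pair values of 0.02, 1.00 and 0.42. Of the 25 proteases and inhibitors tested, 13 were above 0 with a median of 0.00, and ADAM8, a membrane-bound metalloprotease, stood at 0.39 (adjusted p = 0.452). Neither edgeR nor DESeq2 called a gene of the matrix or protease lists. In each list 3 genes were higher at an unadjusted p under 0.05, beside 4.63% of all genes. Lower at this p were 0 matrix genes and 1 protease gene, beside 4.79% of all genes.

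Immediate early genes were lower in stiff-to-soft almost throughout the list. Of 39 tested, 38 were lower in stiff-to-soft, beside 49.8% of all genes, and the median was -0.22, beside 0.00. At an unadjusted p under 0.05, 17 were lower and 0 higher, beside 4.79% and 4.63% of all genes. None was called by edgeR, and DESeq2 called 2, EGR1 and MCL1. Pair medians were -0.54, -0.02 and -0.13, so the shift was largest in pair 1. Without LPA-to-soft replicate 1 the median of the list was -0.10, and without replicate 1 in every condition it was -0.09. These genes are co-induced within minutes of growth factor, serum or mechanical stimulation, and SRF and CREB are among the factors that induce them.

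Promoter sequences are shown for EGR1, JUNB and IER2, the members of the immediate early list with the smallest p among those with an entry in the RefSeq promoter table, a choice made after their values were seen. Each run gives the 250 bases before the annotated start on the plus strand of build GRCh38.p14. Capitals mark CArG boxes, the site that SRF binds, and TGACG in either orientation (CGTCA), the half-site of the cAMP response element that CREB binds. The EGR1 window is chr5:138465229-138465478, the JUNB window chr19:12791236-12791485 and the IER2 window chr19:13150161-13150410.
EGR1: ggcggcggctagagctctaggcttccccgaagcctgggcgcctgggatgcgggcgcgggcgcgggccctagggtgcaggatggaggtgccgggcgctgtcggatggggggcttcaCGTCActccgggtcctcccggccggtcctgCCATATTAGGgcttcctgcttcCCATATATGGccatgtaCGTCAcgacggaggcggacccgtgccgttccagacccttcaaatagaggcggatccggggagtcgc
JUNB: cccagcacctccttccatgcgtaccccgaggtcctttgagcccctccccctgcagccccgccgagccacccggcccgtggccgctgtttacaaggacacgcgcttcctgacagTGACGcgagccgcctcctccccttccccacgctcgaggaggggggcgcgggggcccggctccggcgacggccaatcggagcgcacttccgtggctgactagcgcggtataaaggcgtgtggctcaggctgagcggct
IER2: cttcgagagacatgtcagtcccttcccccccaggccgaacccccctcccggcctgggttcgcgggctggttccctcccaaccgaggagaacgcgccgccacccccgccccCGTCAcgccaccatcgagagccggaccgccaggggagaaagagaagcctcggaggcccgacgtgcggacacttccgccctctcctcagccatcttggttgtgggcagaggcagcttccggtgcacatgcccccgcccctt
The EGR1 window held 2 CArG boxes and 2 half-sites, and the JUNB and IER2 windows held 0 CArG boxes and 1 half-site each. Over all 35116 promoters of the table, searched on both strands in windows of the same length, 1.16% held a CArG box and 21.2% the half-site. The half-site also lies inside the full cAMP response element. A comparison of the list with all promoters is void, because only 28 of the 39 listed genes had an entry.

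EGR1, a zinc finger factor of the early growth response, stood at 626, 341 and 1029 CPM in stiff-to-soft and at 1163, 429 and 1269.99 CPM in LPA-to-soft. All 3 pairs were lower on the stiff side, most of all pair 1 at -0.89 against -0.33 and -0.30. The fit gave -0.53 for EGR1 (SE 0.14, 95% interval -0.82 to -0.23, edgeR adjusted p = 0.452). JUNB, an AP-1 subunit, stood at 374, 221 and 484 CPM in stiff-to-soft and at 708, 274 and 575 CPM in LPA-to-soft, with pair values of -0.92, -0.31 and -0.25 and a fit of -0.51 (adjusted p = 0.452). IER2 stood at -0.34 (adjusted p = 0.452).

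EGR3, a relative of EGR1, stood at 33.6, 6.11 and 41.5 CPM in stiff-to-soft and at 93.0, 8.47 and 71.1 CPM in LPA-to-soft. Replicate 2 was low in both conditions, and EGR3 stood at -0.95 (SE 0.23, edgeR adjusted p = 0.443). MCL1, an anti-apoptotic member of the BCL2 family, stood at -0.25 (SE 0.064, adjusted p = 0.452). FOSL1, another AP-1 subunit and on the same list, stood at -0.02 with a 95% interval from -0.45 to 0.41. The list thus held members with differences near 0 as well as members near -1.

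**Figure D3:**
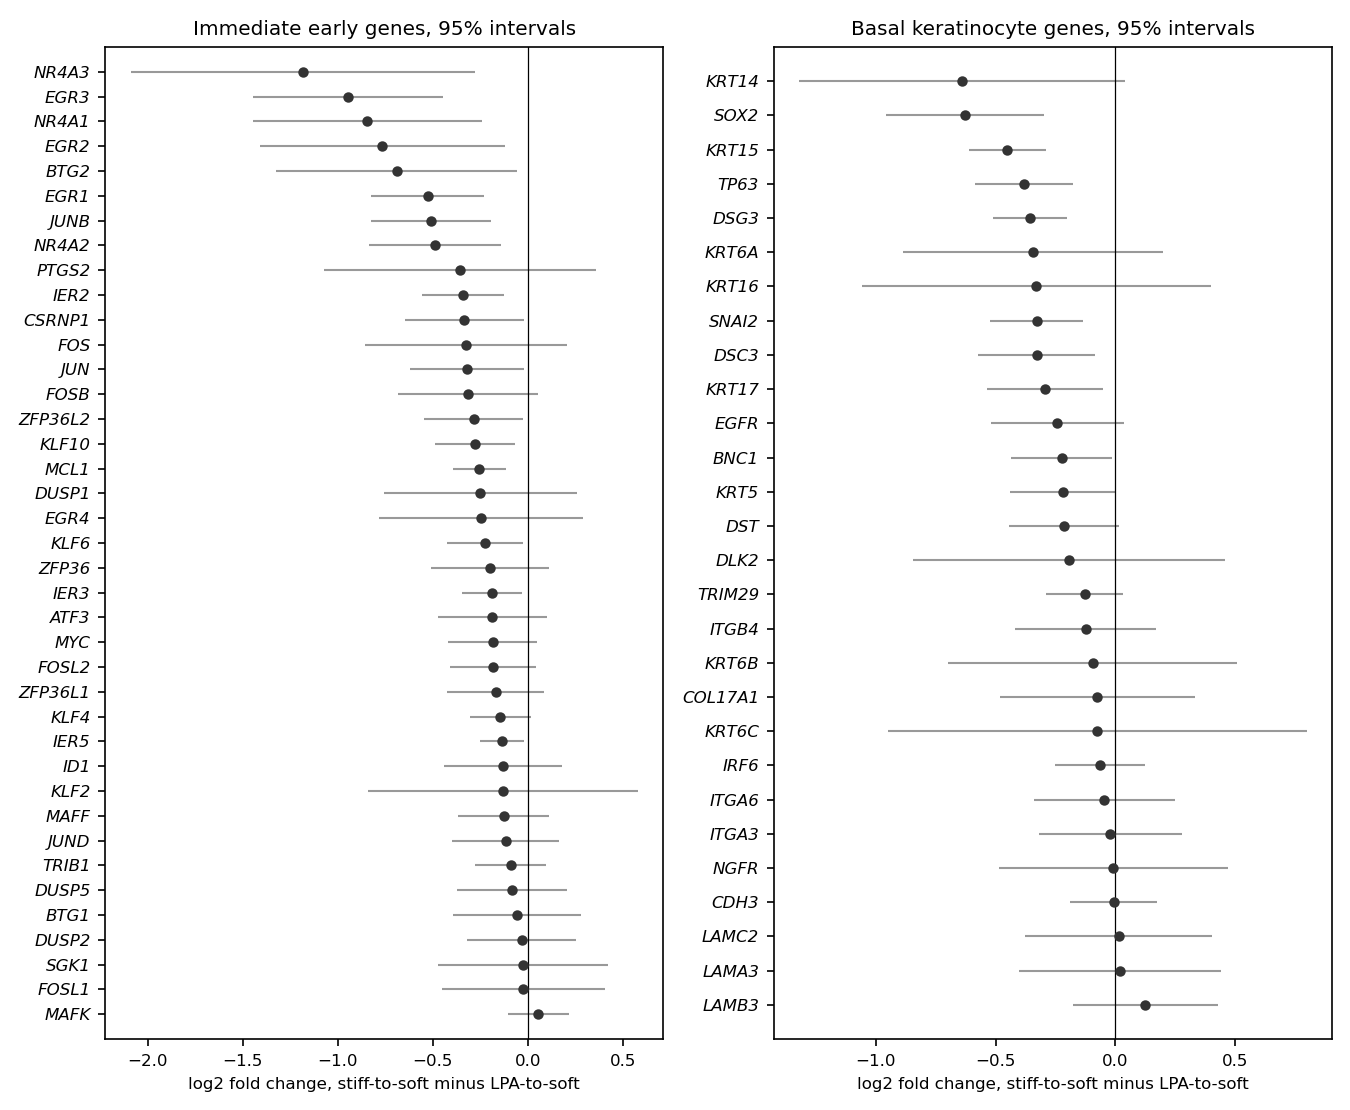
Log2 fold change (stiff-to-soft minus LPA-to-soft, x axis) with 95% intervals from the edgeR fit for the 39 immediate early genes (left) and the 28 basal keratinocyte genes (right) that passed the filter. Points lie left of 0 for 38 of 39 and 25 of 28 genes, and many intervals reach 0.

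Soft-to-soft levels put the immediate early genes in an order. Mean log2 CPM over the list was 7.07, 6.15 and 7.17 in soft-to-soft, 6.97, 5.86 and 6.88 in LPA-to-soft and 6.34, 5.81 and 6.69 in stiff-to-soft. In each replicate number soft-to-soft was the highest of these and stiff-to-soft the lowest, although in replicate 2 the conditioned libraries differed by less than 0.05. LPA-to-FAKi stood at 6.43, 5.84 and 6.88. It was next above stiff-to-soft in replicates 1 and 2 and level with LPA-to-soft in replicate 3. Against soft-to-soft, the list median was -0.43 in stiff-to-soft, with 9 of 39 called, and -0.19 in LPA-to-soft, with 0 called, in comparisons that share libraries. Over all genes, 0.583% and 0% were called in these comparisons. With the even libraries halved, 10 and 0 members were called, beside 100 and 0 of 14673 genes, with medians of -0.43 and -0.19. Against the single soft-to-soft library left without replicates 1 and 2 the medians were -0.44 and -0.16, and 0 members were called in either.

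Genes next to ERK signalling leaned lower in stiff-to-soft with members on both sides of 0, and edgeR called 0 of them. EREG, a ligand of the EGF receptor, stood at 37.1, 29.8 and 32.8 CPM in stiff-to-soft and at 46.6, 36.4 and 41.9 CPM in LPA-to-soft. Pair values for EREG ran from -0.35 to -0.29, and the fit gave -0.32 (SE 0.067, edgeR adjusted p = 0.364). HBEGF, another ligand of that receptor, stood at -0.27 (adjusted p = 0.452). Of 14 tested ligands and receptors, 9 were below 0 and 3 had an unadjusted p under 0.05, all lower, with a median of -0.07. EREG was the only member called by DESeq2. Feedback regulators of ERK had 12 of 17 below 0 with a median of -0.08. At an unadjusted p under 0.05, 3 of these regulators were lower and 0 higher, beside 4.79% and 4.63% of all genes. DUSP6, the phosphatase that dephosphorylates ERK, stood at 25.1, 20.1 and 26.4 CPM in stiff-to-soft and at 39.4, 28.9 and 30.2 CPM in LPA-to-soft. The groups of DUSP6 did not overlap, as for 5.84% of all genes in either direction and 3.19% in this one, and its difference was -0.45 (adjusted p = 0.529).

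Basal keratinocyte genes were lower in stiff-to-soft for 25 of 28 members, with a median of -0.20 and pair medians of -0.15, -0.32 and -0.14. At an unadjusted p under 0.05, 8 were lower and 0 higher, beside 4.79% and 4.63% of all genes. None was called by edgeR, and DESeq2 called 4, KRT15, DSG3, SOX2 and TP63. TP63, the master regulator of squamous basal identity, stood at 391, 250.3 and 337 CPM in stiff-to-soft and at 502, 349 and 414 CPM in LPA-to-soft. Each pair was lower on the stiff side, and TP63 stood at -0.38 (SE 0.094, 95% interval -0.59 to -0.18, edgeR adjusted p = 0.443). LPA-to-soft and soft-to-soft were level for TP63, with 475, 347 and 447 CPM in soft-to-soft and a difference of 0.00.

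SOX2, which is often amplified together with TP63 in squamous cancers, stood at 25.0, 11.3 and 29.0 CPM in stiff-to-soft and at 42.9, 20.3 and 34.9 CPM in LPA-to-soft. The difference was -0.63 (SE 0.15, edgeR adjusted p = 0.443), and soft-to-soft held more, at 58.6, 31.3 and 47.4 CPM. DSG3, a desmosomal cadherin of basal layers, stood at -0.35 (SE 0.070, adjusted p = 0.333), with pair values from -0.38 to -0.31. SNAI2, a zinc finger repressor that basal cells also express, stood at -0.33 (adjusted p = 0.452). The basal list median stood at -0.36 (stiff-to-soft) and at -0.20 (LPA-to-soft) against soft-to-soft. Without soft-to-soft replicates 1 and 2 those medians were -0.27 and -0.02.

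Differentiation genes leaned the same way with a wider spread. Of 62 tested, 47 were below 0, with a median of -0.22, pair medians of -0.02, -0.46 and -0.21, and member values from -2.51 to 0.60. Only 35 of the 62 had intervals within 1 log2 unit of 0. At an unadjusted p under 0.05, 8 were lower and 1 higher, beside 4.79% and 4.63% of all genes. DESeq2 called 4, all lower, which were SPRR2A, SPRR2E, TMPRSS11D and ZNF750. ZNF750, a zinc finger factor that drives epidermal differentiation, stood at 89.6, 31.5 and 75.9 CPM in stiff-to-soft and at 154, 53.4 and 114 CPM in LPA-to-soft. The difference was -0.71 (SE 0.15, edgeR adjusted p = 0.367), lower in all 3 pairs, with 199.9, 58.2 and 166 CPM in soft-to-soft. TMPRSS11D, an airway-type serine protease of squamous surfaces, stood at -0.59 (adjusted p = 0.443).

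Cell junction genes split. Of 36 tested, 22 were below 0 with a median of -0.03. There, 8 were lower and 2 higher at an unadjusted p under 0.05, beside 4.79% and 4.63% of all genes. DESeq2 called DSG3. The lower ones by smallest p were components of desmosomes and of their regulation, DSG3, PKP1 and PERP. PKP1, a plakophilin, stood at 285, 67.0 and 80.7 CPM in stiff-to-soft and at 341, 139.8 and 133 CPM in LPA-to-soft. The fit gave -0.64 for PKP1 (SE 0.199, edgeR adjusted p = 0.452) and -0.19 for PERP (adjusted p = 0.452). EPCAM, an epithelial adhesion molecule, stood on the other side at 0.195 (95% interval 0.02 to 0.37, adjusted p = 0.509), and DSP, desmoplakin, at -0.31 (adjusted p = 0.492).

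Notch pathway genes, which govern the exit from the basal layer, had 18 of 22 members below 0 with a median of -0.13 and pair medians of -0.29, -0.13 and -0.02. At an unadjusted p under 0.05, 6 were lower and 0 higher, beside 4.79% and 4.63% of all genes. Neither edgeR nor DESeq2 called any member. NRARP, a target and inhibitor of Notch, stood at 187, 68.2 and 153 CPM in stiff-to-soft and at 257, 80.9 and 188 CPM in LPA-to-soft, with 323, 137 and 319 CPM in soft-to-soft. The NRARP difference between the conditioned groups was -0.34 (SE 0.098, edgeR adjusted p = 0.452). HES2 stood at -0.37 (adjusted p = 0.446) and HEY1, a direct Notch target, at -0.52 (adjusted p = 0.504).

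Mesenchymal factors went both ways. S100A4, a calcium-binding protein linked to cell motility, stood at 32.3, 34.2 and 29.4 CPM in stiff-to-soft and at 20.8, 22.7 and 22.2 CPM in LPA-to-soft. The groups did not overlap, as for 2.66% of all genes in this direction, and S100A4 stood at 0.54 (SE 0.13, edgeR adjusted p = 0.443). L1CAM, an adhesion molecule of migrating cells, stood at 5.67, 11.2 and 8.37 CPM against 4.35, 3.63 and 5.06 CPM, with a difference of 0.95 (SE 0.25, adjusted p = 0.452). Of the 19 genes tested, 12 were above 0 with a median of 0.05. Among the 19, 4 were higher and 1 lower at an unadjusted p under 0.05, beside 4.63% and 4.79% of all genes. SNAI2, which is on this list as well as on the basal list, stood at -0.33 and was lower in 3 of 3 pairs. DESeq2 called S100A4 and L1CAM. The median of this list was 0.21 without LPA-to-soft replicate 1 and -0.02 without replicate 3 in every condition.

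Interferon response genes were lower in stiff-to-soft for 50 of 57 members, with a median of -0.20. Of the 57, 10 were lower and 0 higher at an unadjusted p under 0.05, beside 4.79% and 4.63% of all genes. Neither edgeR nor DESeq2 called any member. Pair medians were -0.16, -0.08 and -0.37, and without replicate 3 in every condition the median was -0.09. IFI6, an interferon-induced mitochondrial protein, stood at 107, 23.0 and 192 CPM in stiff-to-soft and at 151, 35.3 and 327 CPM in LPA-to-soft. Both conditions were low in replicate 2 and high in replicate 3, and the IFI6 difference was -0.62 (SE 0.21, edgeR adjusted p = 0.496). IFI44L stood at -0.76 (adjusted p = 0.457) and SAMD9 at -0.45 (adjusted p = 0.452). The list median against LPA-to-FAKi stood at 0.27 (stiff-to-soft) and at 0.45 (LPA-to-soft), in comparisons that share the LPA-to-FAKi libraries and called 0.0324% and 0% of all genes.

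NF-kB and cytokine genes showed no common direction, with 27 of 43 above 0, a median of 0.08 and pair medians of -0.18, 0.32 and 0.15. An unadjusted p under 0.05 was seen for 4 that were higher and 4 that were lower, beside 4.63% and 4.79% of all genes. DESeq2 called CSF2 and C2, both higher. C2, a component of the classical complement pathway, stood at 6.17, 6.90 and 6.59 CPM in stiff-to-soft and at 4.62, 4.52 and 4.27 CPM in LPA-to-soft. The groups of C2 did not overlap, as for 2.66% of all genes in this direction. The C2 difference was 0.55 (SE 0.14, edgeR adjusted p = 0.443), beside 4.16, 3.34 and 4.20 CPM in soft-to-soft. TNFAIP8, a regulator of cell survival induced by NF-kB, stood at 14.2, 14.9 and 14.7 CPM against 19.3, 17.6 and 17.6 CPM (difference -0.32, adjusted p = 0.457). The groups of TNFAIP8 did not overlap, as for 3.19% of all genes in the lower direction. TGF-beta and BMP genes had 11 of 28 above 0 and a median of -0.04. SMAD6, an inhibitor of BMP signalling, stood at 0.41 (adjusted p = 0.452), without overlap, as for 2.66% of all genes in the higher direction.

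**Figure D4:**
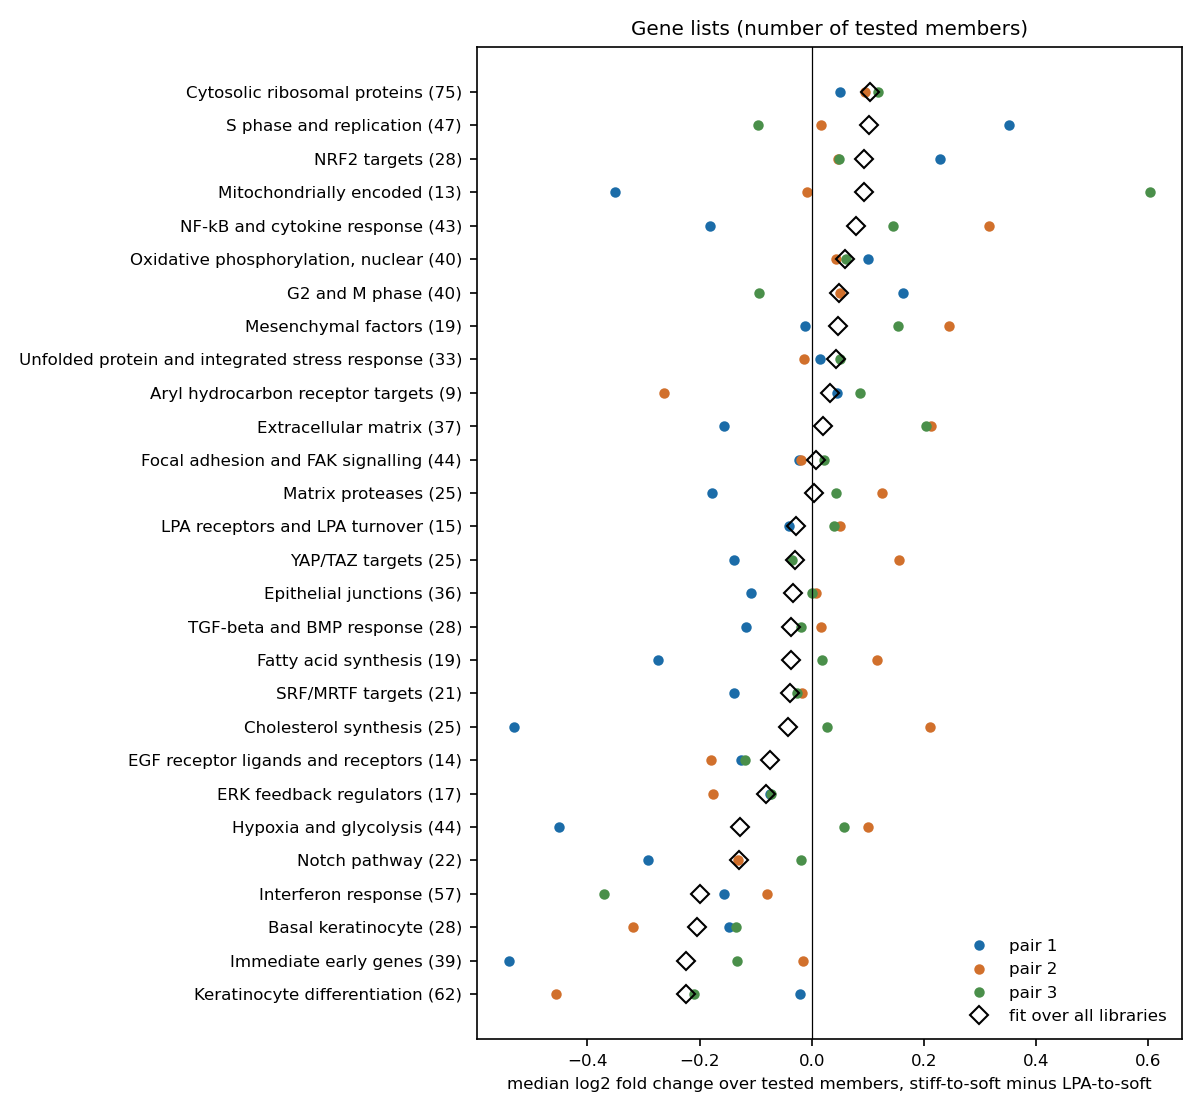
Median log2 fold change (stiff-to-soft minus LPA-to-soft, x axis) over the tested members of each gene list drawn, from the fit over all libraries (open diamonds) and within each pair of libraries (coloured points). Medians from the fit run from -0.22 for differentiation and immediate early genes to 0.10 for ribosomal proteins and S phase genes, and for several lists pair 1 lies far from the others.

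Hypoxia genes stood apart in LPA-to-soft replicate 1. Mean log2 CPM of the hypoxia and glycolysis list was 6.44 in that library, against 5.61 and 5.79 in the other LPA-to-soft libraries and 5.69, 5.72 and 5.85 in stiff-to-soft. Of the 44 members, 35 were below 0 with a median of -0.13, and pair medians were -0.45, 0.10 and 0.06. Without LPA-to-soft replicate 1 the median was 0.06. NDRG1, a stress-response gene induced by low oxygen, stood at 186, 22.9 and 22.1 CPM in LPA-to-soft and at 30.7, 16.9 and 20.9 CPM in stiff-to-soft. The NDRG1 difference of -1.17 (SE 0.40, edgeR adjusted p = 0.492) was -0.38 without that library. For cholesterol synthesis the median was -0.04, with pair medians of -0.53, 0.21 and 0.03, and it was 0.07 without LPA-to-soft replicate 1. Mean log2 CPM of the cholesterol list in replicate 1 was 5.60 in stiff-to-soft, 5.90 in soft-to-soft and 6.16 in LPA-to-soft, so both compared libraries lay away from soft-to-soft there. Fatty acid synthesis, with a median of -0.04 over 19 genes, followed with pair medians of -0.28, 0.12 and 0.02.

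**Figure D5:**
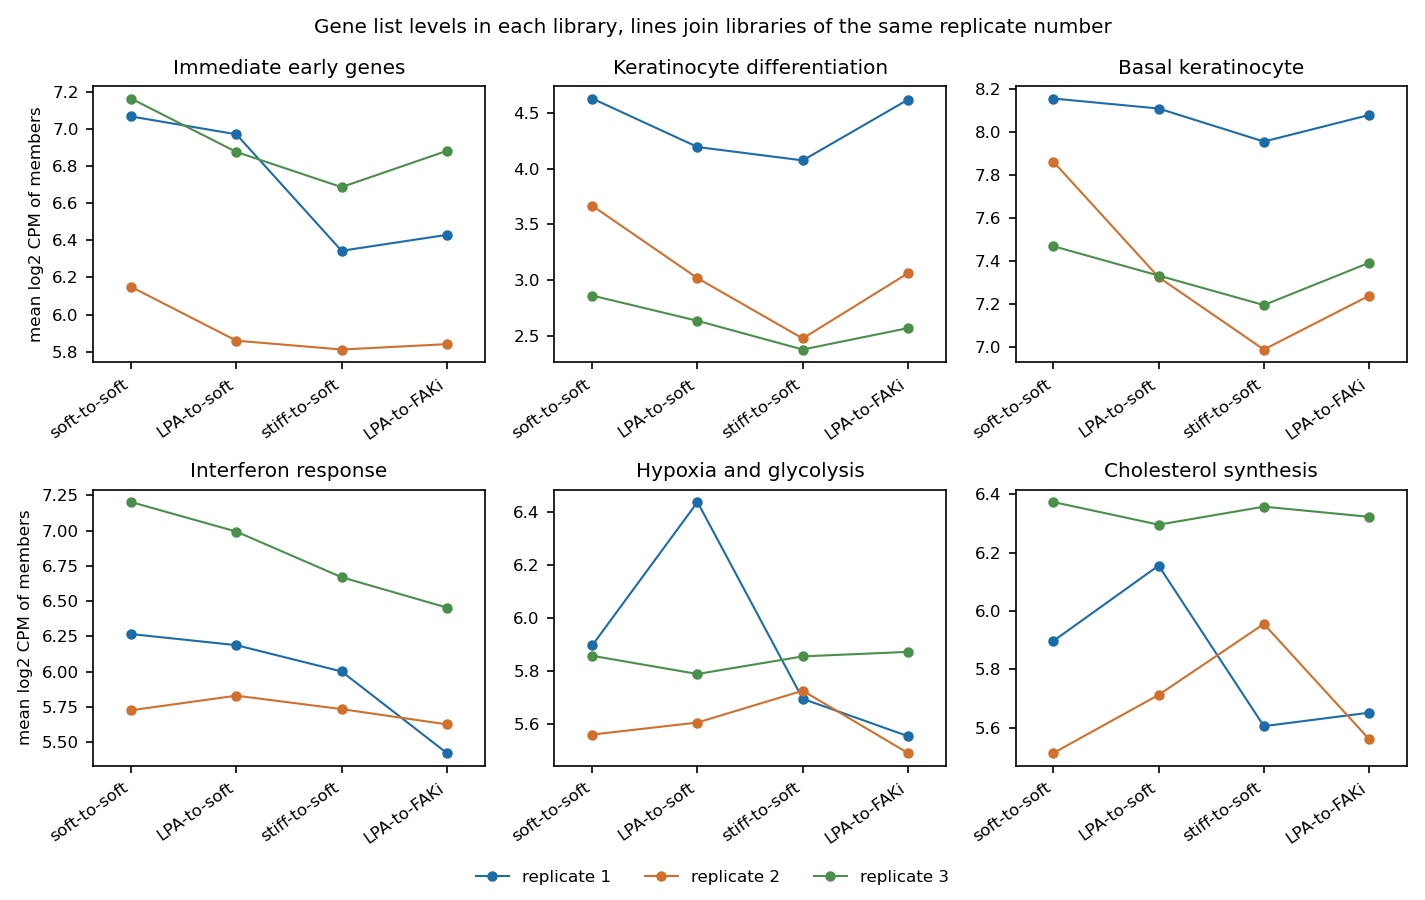
Mean log2 CPM over the members of 6 gene lists in each of the 12 libraries, with lines joining libraries of the same replicate number. The hypoxia and glycolysis panel shows LPA-to-soft replicate 1 at 6.44, above the other 11 libraries, and the immediate early panel shows replicate 1 dropping from 6.97 in LPA-to-soft to 6.34 in stiff-to-soft.

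Several housekeeping groups lay slightly above 0. Cytosolic ribosomal proteins were higher in stiff-to-soft for 74 of 75 members, with a median of 0.10 and pair medians of 0.05, 0.10 and 0.12. Of these 75 genes, 60 had the same sign in all 3 pairs, a property of 18.1% of all genes in this direction. At an unadjusted p under 0.05, 3 were higher and 0 lower, beside 4.63% and 4.79% of all genes, and edgeR and DESeq2 called 0. RPS15, of the small subunit, stood at 0.17 with a 95% interval from 0.03 to 0.31. Nuclear genes of oxidative phosphorylation had 35 of 40 above 0 with a median of 0.06. Among these 40, 6 were higher and 1 lower at an unadjusted p under 0.05, beside 4.63% and 4.79% of all genes. NDUFS3, a subunit of complex I, stood at 0.18 (edgeR adjusted p = 0.497).

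Mitochondrially encoded genes gave opposite signs in different pairs. Their median was 0.09 from the fit, with pair medians of -0.35, -0.01 and 0.60. The mitochondrial share of counts in stiff-to-soft was 5.54%, 4.33% and 8.04%. The LPA-to-soft libraries had 6.94%, 4.31% and 5.47%. ATP6, a subunit of ATP synthase, stood at 4104, 3991 and 7285 CPM in stiff-to-soft and at 4696, 3629.98 and 4362 CPM in LPA-to-soft (difference 0.22, 95% interval -0.10 to 0.55). The list median was -0.15 without replicate 3 in every condition, so no direction holds for it.

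Cell cycle genes showed a small tilt carried by replicate 1. S phase genes were above 0 for 40 of 47 members with a median of 0.10, pair medians of 0.35, 0.02 and -0.10, and a median of -0.04 without replicate 1 in every condition. TYMS, thymidylate synthase, stood at 0.24 (edgeR adjusted p = 0.496), and the cyclin CCNE1 at 0.20. Genes of G2 and M phase were above 0 for 29 of 40 with a median of 0.05 and pair medians of 0.16, 0.05 and -0.09. UBE2C, which feeds the anaphase-promoting complex, stood at 0.21 (adjusted p = 0.504).

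Oxidative stress genes were mostly higher in stiff-to-soft. NRF2 targets were above 0 for 21 of 28 members with a median of 0.09, and pair medians of 0.23, 0.05 and 0.05. Of the 28, 5 were higher and 0 lower at an unadjusted p under 0.05, beside 4.63% and 4.79% of all genes. HMOX1, haem oxygenase, stood at 16.2, 31.9 and 15.0 CPM in stiff-to-soft and at 12.3, 20.5 and 10.2 CPM in LPA-to-soft. All 3 pairs of HMOX1 were higher, and the difference was 0.54 (SE 0.101, edgeR adjusted p = 0.333). DESeq2 called HMOX1 alone of this list. GCLM, of glutathione synthesis, stood at 0.28, and TALDO1, of the pentose phosphate pathway, at 0.20. Unfolded protein and integrated stress response genes had 22 of 33 above 0 and a median of 0.04. ATF5, a stress-induced transcription factor on that list, stood at 0.30 (adjusted p = 0.452). The groups of ATF5 did not overlap, as for 2.66% of all genes in this direction. Aryl hydrocarbon receptor targets had 5 of 9 above 0 and a median of 0.03.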

How the data were processed

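The authors deposited whole-number read counts per gene symbol. Per the submitters' processing notes, cutadapt, FastQC, STAR, HTSeq and DESeq2 were used with build hg19. The sources used here give no order, versions, settings, strand handling or annotation. A second deposited table, on a log2 scale, was not used. Columns without a sample numbered 0. Date-like symbols numbered 28 and held 0.178% of counts.

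Counts were tested with edgeR 4.0.16 (quasi-likelihood F test, TMM scaling, its low-count filter by the 4 conditions) in R 4.3.3, over all 12 libraries, with condition and replicate number as terms. The contrast was stiff-to-soft minus LPA-to-soft, with Benjamini-Hochberg adjustment over 15437 genes. A gene was called at an adjusted p under 0.05. The fit left 6 residual degrees of freedom. A run of the test on simulated data set a pass mark for large changes only, so it does not bear on the THBD call. Levels are TMM-scaled CPM, and log2 CPM used a prior count of 2. Intervals are 95% t intervals. DESeq2 1.42.0 and limma 3.58.1 served as alternatives.

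Numbers pair the samples: after condition means were removed, same-numbered libraries correlated with r from 0.312 to 0.659 (18 pairs) and others from -0.517 to 0.037 (36 pairs). With condition means removed, positive values among same-numbered libraries force negative ones among the others, so the second range is no separate evidence. What the numbers refer to is not in the labels.

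The comparison, the 33 gene lists and the rules were chosen with earlier results of these data known. Genes named were those called, of at least 1 CPM and with the same sign in all pairs, up to 12 per direction. With under 5 called in a direction, the 5 of smallest p there were named. Up to 3 members of smallest p per list and a set of LPA, FAK, YAP and contractility genes were also named. SPRR2E, IER2, FOSL1, ZBED6CL and IL17C were named after their values were seen, and the symbols of mitochondrial genes were matched after the table was seen. The alternatives against soft-to-soft were chosen after seeing the data. Some named items are not reported here. Promoter sequences came from RefSeq (GRCh38.p14).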

Additional observations from a re-analysis of the deposited data

How the results depend on the processing

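The number of genes called was 1 and became 0 with no replicate block (215 genes at an unadjusted p under 0.05), 4 with the 6 compared libraries only (2 higher, 2 lower), 0 with RLE scaling and 71 with DESeq2, all but the first with the replicate block. It stayed at 1 in the other 6 settings that kept all 6 libraries, although not always for THBD. With the pairing by replicate number dropped, THBD had adjusted p = 0.999969. It had 0.0641 with RLE scaling, 0.122 without the soft-to-soft condition and 0.129 without soft-to-soft replicates 1 and 2. In both of the last settings the call fell on IL17C, an epithelial cytokine (0.87, adjusted p = 0.0342 and 0.0312), which stood at 0.86 (adjusted p = 0.497) with all 12 libraries. The 6 libraries alone gave SPRR2A, ZBED6CL, ZNF750 and IL17C, each at adjusted p = 0.0452. Leaving out libraries, 9 ways in all, gave between 0 and 0 calls.

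Over 114 named genes and the settings that kept the 6 libraries, 1109 values kept direction and side of the threshold, 23 newly passed it and 5, all THBD, no longer did. In the 9 leave-outs 31 values changed sign, all of genes not called. Their lowest and highest values over the leave-outs were -0.024 to 0.43 for ATP6, -0.087 to 0.56 for CD14, -0.052 to 0.23 for CD68, -0.0398 to 0.62 for CDH5, -0.12 to 0.20 for COL1A1, -0.095 to 0.37 for COX3, -0.32 to 0.0046 for CYP51A1, -0.17 to 0.13 for CYR61. They were -0.51 to 0.043 for IDI1, -0.44 to 0.072 for ITGAM, -0.42 to 0.12 for LPAR5, -0.32 to 0.10 for LPAR6, -1.41 to 0.79 for LUM, -0.45 to 0.15 for MYL9 and -0.12 to 0.35 for ND1. The causes were not tested. Where a leave-out left 2 libraries in a condition, the fit pooled the spread over conditions. Each compared library held at least 101153180 counts, and the 561 genes with an estimated change of 1 log2 unit or more had a median level of 0.113 CPM, where few counts limit precision.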
